A study of Homo sapiens with 4 samples.

Results

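The 8 genes described here, ACTB, GAPDH, EEF1A1, RPLP0, PGK1, ENO1, LDHA and HSP90AB1, are housekeeping genes that most human cells transcribe at a high level. They were chosen by name, and their transcription start sites were taken as given positions on the hg19 genome build, and the rule uses no measured value. On hg19 the start sites are chr7:5570232 (ACTB, minus strand), chr12:6643585 (GAPDH, plus), chr6:74230755 (EEF1A1, minus), chr12:120638910 (RPLP0, minus), chrX:77359666 (PGK1, plus), chr1:8938780 (ENO1, minus), chr11:18415936 (LDHA, plus) and chr6:44214849 (HSP90AB1, plus). The 1 kb tiles centred within 6 kb of those sites number 96, of 2598309 tiles of the genome that held a read in any library. RNA was not analysed here, so the high expression of these genes in the cells studied is background and was not checked.

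The libraries come from chromatin immunoprecipitation followed by sequencing (ChIP-seq) in wild-type K562 cells, an established human leukaemia line with erythroid features, grown in serum-containing medium and fixed with formaldehyde. There were 2 libraries made with an antibody to DPF2 and 2 made with an antibody to crotonylated lysine 14 of histone H3 (H3K14cr). The DPF2 libraries held 7787444 and 13317496 reads, and the H3K14cr libraries held 10880366 and 17369133. All cells share 1 line and 1 genotype, no untreated or input library was analysed here, and nothing in the labels tells whether the libraries of 1 antibody stem from different cultures. Compared over 1 kb tiles, both libraries of each antibody agreed within sampling noise, with a chi-square over its degrees of freedom of 0.981 in DPF2 and 0.990 in H3K14cr. Each antibody was therefore counted as 1 sample (n = 1), intervals cover counting error only, and differences between antibodies have no replicate check. With 2 libraries against 2, the smallest p of an exact two-sided permutation test is 0.333, so no such test was used.

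Actively transcribed promoters in human cells carry acylated histones on the nucleosomes next to a nucleosome-poor start site. DPF2 is a subunit of the BAF chromatin remodelling complexes, and its tandem PHD fingers bind histone H3 that is acylated on lysine 14. Crotonylation is a histone acylation that, like acetylation, is found at active promoters and enhancers.

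Promoter sequences were taken from RefSeq on the GRCh38.p14 build, where 7 of the 8 genes have an entry. The 4 shown are those with a single listed start that is also the 5′ end of the gene, and each is the 250 bases before that start. They span chr6:73521033-73521282 (EEF1A1, minus strand), chr12:120201112-120201361 (RPLP0, minus strand), chrX:78103998-78104247 (PGK1, plus strand) and chr1:8878687-8878936 (ENO1, minus strand). They stand for the range of results below: EEF1A1 was enriched for both antibodies at its start, ENO1 and PGK1 for H3K14cr, and RPLP0 for neither on the tile grid used. Capitals mark matches on either strand to the letters TATAA of the TATA box, to the letters CCAAT of the CCAAT box, or to the GC box, whose letters are GGGCGG.
EEF1A1: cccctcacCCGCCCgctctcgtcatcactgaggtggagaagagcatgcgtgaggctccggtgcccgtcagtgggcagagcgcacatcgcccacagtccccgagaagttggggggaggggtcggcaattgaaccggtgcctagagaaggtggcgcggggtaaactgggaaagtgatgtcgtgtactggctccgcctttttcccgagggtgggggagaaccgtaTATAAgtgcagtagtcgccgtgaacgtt
RPLP0: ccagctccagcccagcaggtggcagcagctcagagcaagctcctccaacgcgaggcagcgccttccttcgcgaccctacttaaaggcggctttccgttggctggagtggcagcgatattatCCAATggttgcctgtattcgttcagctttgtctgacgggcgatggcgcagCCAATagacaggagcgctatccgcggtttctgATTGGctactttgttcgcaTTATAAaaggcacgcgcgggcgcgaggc
PGK1: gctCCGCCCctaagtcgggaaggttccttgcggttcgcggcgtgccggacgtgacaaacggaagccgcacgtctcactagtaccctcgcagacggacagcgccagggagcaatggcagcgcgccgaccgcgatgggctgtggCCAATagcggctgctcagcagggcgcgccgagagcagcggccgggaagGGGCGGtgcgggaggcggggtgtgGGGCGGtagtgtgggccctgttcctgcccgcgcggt
ENO1: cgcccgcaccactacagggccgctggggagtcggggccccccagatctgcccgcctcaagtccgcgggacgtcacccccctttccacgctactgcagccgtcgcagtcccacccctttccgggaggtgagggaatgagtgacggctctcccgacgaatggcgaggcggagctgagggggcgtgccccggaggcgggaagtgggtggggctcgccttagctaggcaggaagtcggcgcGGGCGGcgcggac

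The promoters differ in these letters. TATAA begins 28 bases before the start in EEF1A1 and 27 bases before it in RPLP0, where it was matched on both strands in overlapping letters, and is not among the 250 bases of PGK1 or ENO1. CCAAT was matched 3 times in RPLP0 and 1 time in PGK1. GGGCGG was matched 3 times in PGK1, 1 time each in EEF1A1 and ENO1, and not in RPLP0. Of 34943 RefSeq windows of the same length, 19.0% hold TATAA, 32.0% CCAAT and 42.5% GGGCGG. The GC content was 58.4% for RPLP0, 61.6% for EEF1A1, 71.2% for PGK1 and 72.0% for ENO1, against a median of 58.0% over all windows. These matches describe letters and were not tied to binding.

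The first question was how much of each signal lies at the start sites. Levels are given in CPM, the reads scaled by the library's total, in the 2 kb centred on the start site, and enrichment as the reads per kb in those 2 kb over the mean per kb of the surrounding 20 kb. Both antibodies were above the local mean at all 8 start sites in all 4 libraries. For DPF2 the median fold over the genes was 2.16, with a range of 1.78 to 3.18. For H3K14cr it was 2.93, with a range of 1.81 to 3.92. The surroundings were themselves rich in reads: the 20 kb around the genes stood at 1.93 to 5.21 times the chromosome mean for DPF2 and at 2.29 to 6.06 times for H3K14cr. When set against the mean of the chromosome, the median start site reached 7.24-fold in DPF2, while in H3K14cr it reached 10.0-fold. Copy number and other differences in read level between loci enter the comparison with the chromosome mean, and their part in it was not tested.

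**Figure D1:**
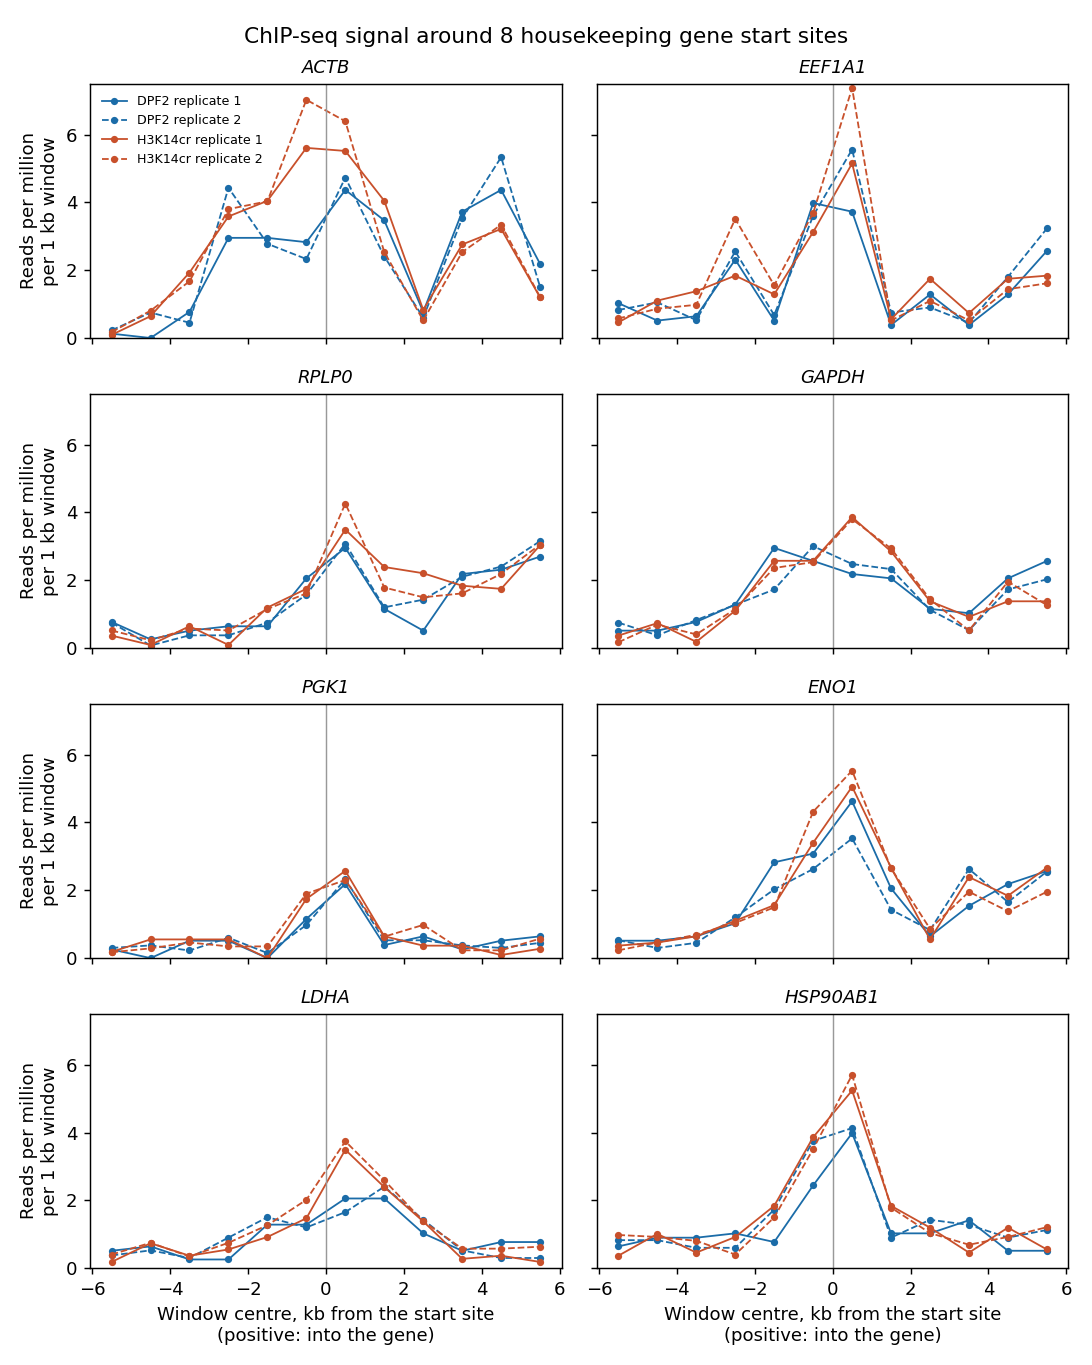
CPM in 1 kb windows (y axis) against the distance of the window centre from the start site in kb (x axis, positive into the gene), 1 panel per gene; blue lines are DPF2 and orange lines H3K14cr, solid for replicate 1 and dashed for replicate 2. In 7 of the genes H3K14cr is highest in the first 1 kb of the gene. ACTB shows broad signal on both sides and a separate rise of both antibodies near 4.5 kb, where DPF2 is the higher.

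ACTB encodes beta-actin, the main cytoplasmic actin of the cytoskeleton. In the 2 kb at its start site the DPF2 libraries had 7.19 and 7.06 CPM, and the H3K14cr libraries had 11.1 and 13.4 CPM. The antibodies did not overlap, and the H3K14cr level was the highest among the 8 genes. The fold over the local mean was 1.99 for DPF2 (95% exact Poisson interval 1.68 to 2.33) and 3.07 for H3K14cr (2.76 to 3.40).

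Signal at ACTB was spread over several kb. Between 3 and 2 kb upstream of the start the DPF2 libraries had 2.95 and 4.43 CPM, and the H3K14cr libraries had 3.58 and 3.80. From 2 to 3 kb into the gene all 4 libraries dropped to between 0.518 and 0.827 CPM. From 4 to 5 kb the DPF2 libraries again held 4.37 and 5.33 CPM, much like the 4.37 and 4.73 CPM of the first 1 kb of the gene, while the H3K14cr libraries had 3.22 and 3.34. The ratio of DPF2 to H3K14cr over 1 to 6 kb downstream was 1.27 (95% exact binomial interval 1.08 to 1.49). The 4 to 5 kb window lies past the end of the gene, whose length is 3454 bp in RefSeq on GRCh38.p14. H3K14cr was highest on both sides of the start, with 5.61 and 7.02 CPM in the 1 kb upstream and 5.51 and 6.39 CPM in the first 1 kb of the gene. DPF2 was lower upstream of the start, at 2.82 and 2.33 CPM.

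EEF1A1 encodes the elongation factor that brings aminoacyl-tRNAs to the ribosome. It had 7.70 and 9.16 CPM in the DPF2 libraries and 8.27 and 11.1 CPM in the H3K14cr libraries. With reads scaled by library totals it was the only gene whose antibodies overlapped, since DPF2 replicate 2 was above H3K14cr replicate 1. The fold over the local mean was 2.84 for DPF2 (2.44 to 3.28) and 3.04 for H3K14cr (2.69 to 3.42). Of the 16 pairs of gene and antibody, only H3K14cr at EEF1A1 had an interval that excluded 1 for the ratio of its libraries in these 2 kb. H3K14cr replicate 2 stood at 1.34 times replicate 1 (95% exact binomial interval 1.04 to 1.74), with no adjustment over the 16 pairs.

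The EEF1A1 peak had a sharp edge on the gene side. The first 1 kb of the gene held 3.72 and 5.56 CPM of DPF2 and 5.15 and 7.37 CPM of H3K14cr. The next 1 kb held 0.385 and 0.751 CPM of DPF2 and 0.551 and 0.518 CPM of H3K14cr. Windows under 1 CPM in all 4 libraries also occurred further into the gene at ACTB, ENO1, PGK1 and LDHA. By symbol, RefSeq lists 50 EEF1A1 pseudogenes, 65 of GAPDH, 14 of ACTB, 12 of RPLP0, 6 of LDHA, 6 of HSP90AB1, 4 of ENO1 and 2 of PGK1. How reads that match more than 1 place were treated is not given in the sources used here, so levels inside the transcribed parts are uncertain, and the part of such copies in the low windows was not tested.

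RPLP0 encodes the protein that anchors the stalk of the large ribosomal subunit. Its DPF2 libraries had 5.01 and 4.66 CPM, and its H3K14cr libraries had 5.24 and 5.87 CPM. The antibodies were thus separated only narrowly, and they overlapped under the alternative scalings given below. With libraries pooled RPLP0 had the lowest fold over the local mean of the 8 genes, though for DPF2 its interval overlapped those of 5 others. It stood at 1.78 for DPF2 (1.45 to 2.16) and 1.81 for H3K14cr (1.54 to 2.12). The surroundings were uneven: from 5 to 6 kb downstream the DPF2 libraries had 2.70 and 3.15 CPM and the H3K14cr libraries 3.03 and 3.05, close to their levels in the first 1 kb of the gene (2.95 and 3.08, then 3.49 and 4.26). GCN1, which encodes an activator of the kinase GCN2, is the next protein-coding gene on that side in RefSeq. Such downstream signal is part of the local mean by which the fold was divided.

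A group of 4 genes encodes enzymes of glycolysis and of the step from pyruvate to lactate. GAPDH oxidizes glyceraldehyde 3-phosphate, PGK1 makes ATP in the next step, ENO1 makes phosphoenolpyruvate, and LDHA turns pyruvate into lactate. GAPDH had 4.75 and 5.48 CPM of DPF2 and 6.43 and 6.33 CPM of H3K14cr, at 2.16-fold (1.77 to 2.60) and 2.50-fold (2.15 to 2.90). ENO1 had 7.70 and 6.16 CPM of DPF2 and 8.46 and 9.85 CPM of H3K14cr, at 2.16-fold (1.82 to 2.55) and 2.95-fold (2.60 to 3.33). In both genes each H3K14cr library was above each DPF2 library, though at ENO1 not under the alternative scalings given below.

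PGK1 and LDHA had the lowest levels. PGK1, on chromosome X, had 3.34 and 3.30 CPM of DPF2 and 4.32 and 4.20 CPM of H3K14cr. Its fold over the surroundings was the highest of the 8 genes, at 3.18-fold for DPF2 (2.48 to 4.02) and 3.92-fold for H3K14cr (3.25 to 4.69), with intervals that overlap those of several others. LDHA had 3.34 and 2.85 CPM of DPF2 and 4.96 and 5.76 CPM of H3K14cr, at 1.95-fold (1.50 to 2.49) and 2.91-fold (2.47 to 3.41). The level and the fold thus ranked PGK1 at opposite ends for H3K14cr.

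HSP90AB1 encodes the constitutive cytosolic HSP90 chaperone. Its DPF2 libraries had 6.42 and 7.88 CPM and its H3K14cr libraries 9.10 and 9.21 CPM, with no overlap. The folds were 2.28 for DPF2 (1.94 to 2.67) and 2.78 for H3K14cr (2.45 to 3.14).

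Ordered by H3K14cr level over the 2 libraries, the genes ran ACTB (12.5 CPM), EEF1A1 (9.98), ENO1 (9.31), HSP90AB1 (9.17), GAPDH (6.37), RPLP0 (5.63), LDHA (5.45) and PGK1 (4.25). Neighbours in this order had overlapping 95% intervals except at ACTB against EEF1A1 (11.3 to 13.9 against 8.85 to 11.2) and HSP90AB1 against GAPDH (8.09 to 10.4 against 5.47 to 7.37). By DPF2 the order was EEF1A1 (8.62), HSP90AB1 (7.34), ACTB (7.11), ENO1 (6.73), GAPDH (5.21), RPLP0 (4.79), PGK1 (3.32) and LDHA (3.03), with overlapping intervals between all neighbours. EEF1A1 and HSP90AB1 thus stood above ACTB for DPF2, with overlapping intervals.

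**Figure D2:**
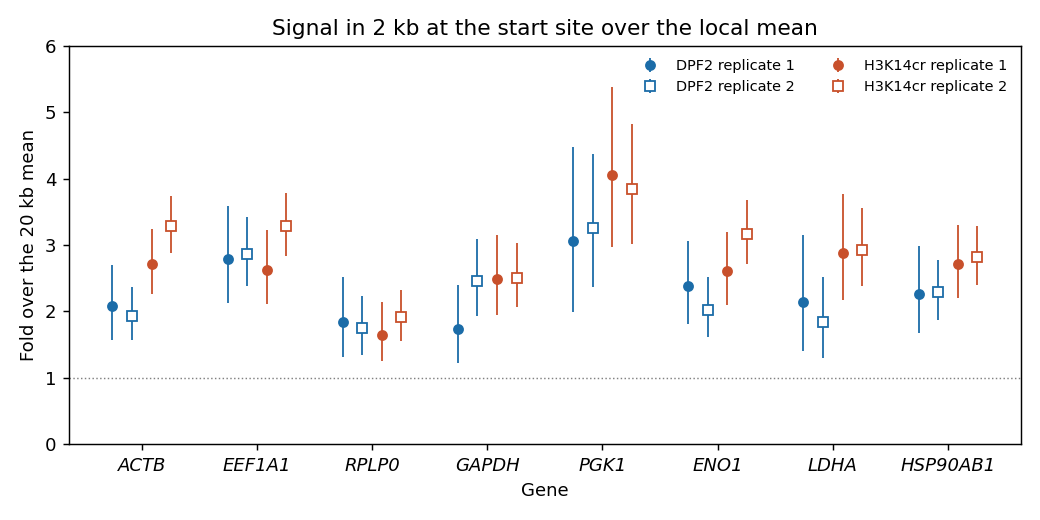
Fold of the reads per kb in the 2 kb at the start site over the mean per kb of the surrounding 20 kb (y axis) for each gene (x axis); filled circles are replicate 1, open squares replicate 2, and bars the 95% exact Poisson interval of the reads in the 2 kb. All points lie above 1, PGK1 is highest for both antibodies, and RPLP0 is lowest for H3K14cr.

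The next question was which member tiles pass the calling rule used over the whole genome. The background of a 1 kb tile was its chromosome's mean or the mean of its 20 kb neighbourhood, whichever was higher. A tile was called enriched if its reads exceeded that background 3-fold or more in each library, with an adjusted p (Benjamini-Hochberg, Poisson, one-sided) no greater than 0.001. For H3K14cr 9 of the 96 tiles passed, at 7 of the 8 genes, against 0.425% of all tiles. For DPF2 2 of the 96 passed, at ACTB and EEF1A1, against 0.221% of all tiles. Tiles around start sites are not a random draw of the genome, and promoters of other genes were not analysed here.

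The H3K14cr tiles were 2 at PGK1, 2 at LDHA and 1 each at ACTB, EEF1A1, GAPDH, ENO1 and HSP90AB1. EEF1A1 at chr6:74230001-74231000 was the only tile enriched for both antibodies, at 3.21-fold and 4.17-fold in the DPF2 libraries and 3.23-fold and 5.15-fold in the H3K14cr libraries. The other DPF2 tile was chr7:5566001-5567000, centred 3732 bp into and just past ACTB, with 3.81-fold and 3.08-fold for DPF2 but 1.82-fold and 1.84-fold for H3K14cr. The highest folds were at PGK1 in chrX:77359001-77360000, with 6.22-fold and 5.35-fold for H3K14cr. DPF2 there was 3.56-fold and 4.87-fold, without passing the adjusted p in both libraries. RPLP0 had no called tile on this grid.

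The number of calls depended on the background and on the grid. Against the chromosome mean alone, 32 of the 96 tiles passed for DPF2 and 41 for H3K14cr, at all 8 genes for both, where 1.11% and 2.12% of all tiles did. With the grid shifted by 500 bp, 5 tiles at 5 genes passed for DPF2 and 8 tiles at 7 genes for H3K14cr, where 0.218% and 0.425% of all tiles did. RPLP0 then had 1 tile for each antibody, and EEF1A1 none for H3K14cr.

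By level the tiles with the most reads ranked high, which follows in part from picking the highest tile of each gene. In the tile of each gene with the highest mean level, DPF2 was above 98.9% to 99.96% of all covered tiles and H3K14cr above 99.2% to 99.97%. Among tiles enriched for H3K14cr, the H3K14cr levels at EEF1A1, ENO1 and ACTB stood above 96.5%, 96.5% and 96.3%, that at LDHA above 69.5% and that at PGK1 above 29.0%. By H3K14cr fold over local background the order was different, with PGK1 above 81.1% of those tiles, LDHA above 68.5%, EEF1A1 above 41.4% and ACTB above 1.86%. The ACTB tile ranked here, chr7:5569001-5570000, was not called for H3K14cr, at 2.81-fold and 3.53-fold. The called ACTB tile next to it, chr7:5570001-5571000, had 3.83-fold and 3.70-fold. At 6 of the 8 genes the mean DPF2 fold of the tile lay under the minimum fold of the calling rule. Such a tile ranks below every DPF2-enriched tile by construction, so its rank adds nothing to its not being called. At PGK1 the DPF2 fold was above 36.2% of the DPF2-enriched tiles, and at EEF1A1 above 15.2%.

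The last question was whether the 2 antibodies differed at these genes. H3K14cr was the higher at all 8 start sites when reads were scaled by library totals. The ratio of DPF2 to H3K14cr in pooled reads had a median of 0.791 and ran from 0.556 to 0.864. It was 0.556 at LDHA (95% exact binomial interval 0.409 to 0.749), 0.567 at ACTB (0.465 to 0.688), 0.723 at ENO1 (0.585 to 0.890) and 0.801 at HSP90AB1 (0.652 to 0.981). It was 0.781 at PGK1 (0.573 to 1.06), 0.818 at GAPDH (0.639 to 1.04), 0.850 at RPLP0 (0.656 to 1.10) and 0.864 at EEF1A1 (0.713 to 1.05), where the interval includes 1. Each of the 4 pairings of a DPF2 with an H3K14cr library gave a ratio below 1, except 1 of the 4 at EEF1A1, which gave 1.11. With median-of-ratios or TMM factors, chosen as alternatives after seeing the data, all 8 ratios stayed below 1 (0.620 to 0.963 and 0.615 to 0.955), with intervals below 1 at 3 genes.

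The direction of this ratio is shared with much of the genome. Both H3K14cr libraries were above both DPF2 libraries in the start-site 2 kb of 7 of the 8 genes. The same held for 23.7% of all 2 kb tiles whose mean was 10 reads or more, but for 58.5% of those whose mean was 40 or more, which is nearer to the read numbers of these genes. With median-of-ratios factors the count was 5 of 8, against 14.6% and 40.9% of those tiles, and with TMM factors 5 of 8, against 15.2% and 42.5%. EEF1A1, ENO1 and RPLP0 overlapped with either set of factors. The median ratio was 0.903 over the 255612 tiles of 1 kb whose mean was 10 reads or more, 0.763 over tiles enriched for either antibody and 0.855 over tiles enriched for both. In 1 kb tiles, the ratio in the tile with the highest mean level was 0.480 at LDHA and 0.513 at GAPDH, below 0.626, the lower quartile of tiles enriched for either antibody. At the other 6 genes it ran from 0.698 at ENO1 to 0.824 at EEF1A1, within the quartiles.

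The ratio was nearer to 1 in the flanks when both flanks of a gene were pooled. In the pooled flanks, from 1 to 6 kb on each side, it ran from 0.922 to 1.05, with a median of 0.971. Every interval of the pooled flanks included 1. Single flanks varied more. At ACTB the upstream flank was at 0.765 (0.629 to 0.928) and the downstream flank at 1.27 (1.08 to 1.49). At EEF1A1 the upstream flank was at 0.78 (0.61 to 0.99). In all other single flanks the interval included 1. The ratio at the start was lower than in the pooled flanks at all 8 genes. It was not lower than in each flank, since at EEF1A1 the upstream flank (0.78) was below the start (0.864). The start-to-flank quotient of the ratios does not depend on the scaling of the libraries, and was taken against the pooled flanks, not against each flank. It was 0.555 at ACTB (0.439 to 0.700), 0.566 at LDHA (0.392 to 0.814) and 0.691 at ENO1 (0.530 to 0.898). At the other 5 genes it ran from 0.781 at GAPDH to 0.922 at RPLP0, with intervals that included 1. Whether other start sites have such a quotient was not analysed here.

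**Figure D3:**
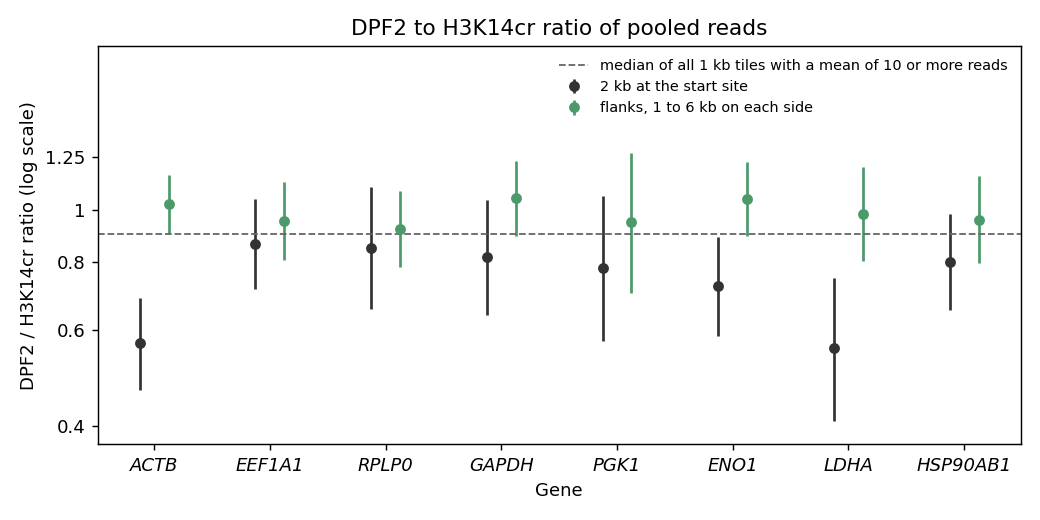
Ratio of DPF2 to H3K14cr in pooled reads scaled by library totals (y axis, log scale) for each gene (x axis), in the 2 kb at the start site (black) and in the flanks (green); bars are 95% exact binomial intervals and the dashed line the median of 255612 tiles. The start-site points lie below the line and the points of the pooled flanks above it at all 8 genes. The median over tiles enriched for either antibody, 0.763 (not drawn), lies within the range of the start-site points.

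Among the member tiles, 60 had a mean of at least 10 reads and entered a limma fit over all 255612 such tiles on log2(CPM + 0.5), a scale that understates the change of low tiles. With a threshold of 0.05 on the adjusted p (Benjamini-Hochberg, limma), 3 member tiles were higher in H3K14cr, against 1.19% of all tiles, and 0 were higher in DPF2, against 0.202%. In the same fit 19 of the 60 had an unadjusted p under 0.05, as had 31719 of all 255612 tiles. The median of their log2 differences (DPF2 minus H3K14cr) was -0.13, against -0.11 over all tiles, and 38 of 60 were below 0. With edgeR the counts were also 3 and 0, against 1.34% and 0.226% of all tiles, and with DESeq2 1 and 0, against 0.149% and 0.0692%.

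The 3 tiles called in the limma fit over all 255612 tiles were at ACTB, GAPDH and LDHA. At ACTB, chr7:5570001-5571000, around and upstream of the start, had 3.47 and 2.93 CPM in the DPF2 libraries and 6.62 and 6.51 CPM in the H3K14cr libraries. Its log2 difference was -0.94 (SE 0.18, limma adjusted p = 0.000527). At GAPDH, chr12:6644001-6645000, in the first part of the gene, had 2.18 and 2.18 CPM of DPF2 and 4.60 and 4.03 CPM of H3K14cr, a difference of -0.84 (SE 0.21, limma adjusted p = 0.0179). At LDHA, chr11:18416001-18417000, at its start, had 2.05 and 1.65 CPM of DPF2 and 3.77 and 3.74 CPM of H3K14cr, a difference of -0.86 (SE 0.22, limma adjusted p = 0.0233). The antibodies did not overlap in any of the 3 tiles, but tiles called by a fit on the same libraries are apt not to overlap. This adds no support to the calls. None of the 3 passed when either H3K14cr library was left out (smallest limma adjusted p = 0.280 and 0.386), when the tiles of the whole genome called higher in H3K14cr fell from 3032 to 39 and 37. With median-of-ratios factors the GAPDH and LDHA tiles did not pass (limma adjusted p = 0.120 and 0.133).

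In the opposite direction, the tile past the end of ACTB, chr7:5566001-5567000, had 5.52 and 4.81 CPM of DPF2 and 3.31 and 3.40 CPM of H3K14cr. Its ratio in pooled reads was 1.51 (1.13 to 2.01), and its log2 difference was 0.55 (SE 0.19, limma adjusted p = 0.134). It was singled out after its values were seen, and it did not pass in the fit over all tiles.

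Of the reads in the 2 kb at the start, the share in the first 1 kb of the gene was above 50% at 7 of the 8 genes for each antibody. Its 95% interval lay above 50% at 6 genes for H3K14cr and at 3 for DPF2 (ACTB, RPLP0 and PGK1). DPF2 had fewer reads at each of the 8 genes and so wider intervals. The median share was 60.1% for H3K14cr and 58.9% for DPF2. For H3K14cr it ran from 48.3% at ACTB (95% exact binomial interval 43.0 to 53.6%) to 70.4% at RPLP0 (62.7 to 77.4%). For DPF2 it ran from 45.5% at GAPDH (35.9 to 55.2%) to 68.6% at PGK1 (56.4 to 79.1%). The antibodies parted most at ACTB, where 64.7% of DPF2 reads (56.5 to 72.3%) but 48.3% of H3K14cr reads lay on the gene side. GAPDH went the other way, with 45.5% for DPF2 and 60.0% for H3K14cr (52.4 to 67.2%). The odds ratio of DPF2 against H3K14cr was 1.96 at ACTB (1.30 to 2.97) and 0.557 at GAPDH (0.334 to 0.923), and its interval included 1 at the other 6 of the 8 genes compared, with no adjustment over them.

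**Figure D4:**
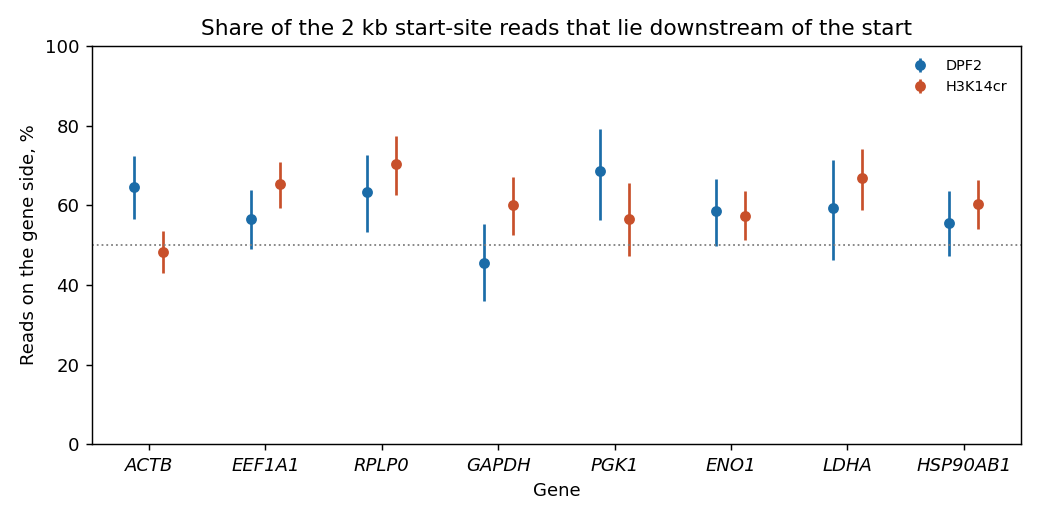
Share of the reads in the 2 kb at the start site that lie in the first 1 kb of the gene (y axis, %) for each gene (x axis), for DPF2 (blue) and H3K14cr (orange) with both libraries pooled; bars are 95% exact binomial intervals and the dotted line marks 50%. ACTB and GAPDH show the antibodies in opposite order.

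Widths were read at the middle height between the summit within 1 kb of the start and the outermost 1 kb on each side, from a 500 bp running mean of the pooled reads. For H3K14cr the median over the 8 genes was 1440 bp, from 780 bp at RPLP0 and 790 bp at EEF1A1 to 1990 bp at ACTB and LDHA. For DPF2 it was 1220 bp, from 700 bp at RPLP0 to 2730 bp at LDHA. H3K14cr was the wider at 5 genes and DPF2 at 3, so no order of the antibodies held over the genes. Single libraries of RPLP0 gave 790 and 690 bp for DPF2 and 690 and 690 bp for H3K14cr, and EEF1A1 measured 790 bp in both H3K14cr libraries. Other widths depended on the library. For H3K14cr, ACTB measured 1990 bp in replicate 1 and 590 bp in replicate 2, and LDHA 890 and 2090 bp. For DPF2, the width of LDHA was 490 and 590 bp in the single libraries against 2730 bp in their sum, which held 64 reads in the 2 kb at the start. The H3K14cr summit lay on the gene side at all 8 genes, 280 to 660 bp from the start. With a 700 bp running mean the ACTB summit moved to 450 bp upstream.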

How the data were processed

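The deposited signal is in bins of 100 bp, and the authors scaled each library to the same total, per the values in the files. Per the submitters' processing notes, Bowtie2 was used, and both mm9 and hg19 are named. The last position of chromosome 1 lies past its end on GRCh38, so coordinates were read as hg19. How duplicates and multiply mapped reads were treated, and which tool made the bins, is not given in the sources used here. Whole reads were recovered from the scaled signal. In that signal 1, 3, 4 and 0 values per library lay more than 0.005 signal units from a whole number of reads (at least 99.9999% whole). On the recovered reads edgeR called 4009 tiles, against 3548 in limma. From these reads, windows, folds and Poisson calls were computed in Python 3.11.15 with scipy 1.17.1. Differences between antibodies were fitted with limma 3.58.1 (trend) on log2(CPM + 0.5), over every 1 kb tile whose mean was 10 reads or more, adjusted over all of them. Alternatives used edgeR 4.0.16 and DESeq2 1.42.0 on the recovered reads, other scalings, read minimums, pseudocounts, tile sizes and single libraries. Because both libraries of 1 antibody agreed within sampling noise, p-values measure technical spread only. All 8 genes are named, each with its start-site window and the tile with the highest mean CPM within 6 kb. Tiles called by limma are named beside them, and other tiles are said to have been chosen after their values were seen. The rule that names the genes uses no measured value, but the genes and the lists were proposed and chosen with earlier results of these data known. Strands came from RefSeq, except that of ACTB, which is general knowledge. The methods were tested on simulated data. Other genes of these pathways were not analysed here.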

Additional observations from a re-analysis of the deposited data

How the results depend on the processing

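Reads were few, with 64 to 182 DPF2 reads and 120 to 354 H3K14cr reads at a start site, which limits widths and single-gene ratios most. The cause of each change below was not tested. DPF2 tiles near the genes numbered 2 at 2 genes. With a fold of at least 5 they became 0 (0.0532% of all tiles). Against the chromosome mean alone they became 32 at 8 genes (1.11%). Tiles of 500 bp gave 1 of 191 at 1 gene (0.0718%), and the shifted grid 5 at 5 (0.218%). Summed libraries gave 5 at 4 genes (0.565%), and a single library 3 to 5 at 3 to 4 genes (0.318% to 0.496%). H3K14cr tiles numbered 9 at 7 genes. They became 1 at 1 gene with a fold of at least 5 (0.101% of all tiles) and 41 against the chromosome mean alone (2.12%). With 2 kb tiles they became 4 of 48 at 4 genes (0.474%). A single library gave 9 to 11 (0.573% to 0.672%).

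The 3 tiles higher in H3K14cr became 1 with median-of-ratios factors, TMM factors or DESeq2 (0.299%, 0.428% and 0.149% of all tiles). They became 0 for folds over the local 20 kb mean, where 0.00117% of all tiles were called. With a mean of at least 20 reads they became 5 of 34, against 12.9% of all tiles. In tiles enriched for either antibody they became 5 of 10, against 31.05% of all such tiles. With 1 library left out, the log2 differences of the 3 tiles called in the main fit varied in size. They ran from -0.83 to -1.04 at ACTB, from -0.76 to -0.93 at GAPDH and from -0.74 to -0.98 at LDHA. Tiles higher in DPF2, 0 otherwise, became 2 of 34 with at least 20 reads (1.36% of all tiles) and 1 of 10 in the enriched tiles (4.24%). Most member tiles in that last fit entered it through the antibody in which they are high, so its counts support nothing. The EEF1A1 tile at its start, at a log2 difference of -0.24, turned to 0.0002 without DPF2 replicate 1 and to 0.064 without H3K14cr replicate 2, and was -0.54 at the lowest with a library left out. With a replicate block 3 and 0 member tiles were called, and 4219 tiles overall against 3548. Same-numbered libraries did not deviate together (r = 0.0015 across tiles). Because libraries of 1 antibody agreed within sampling noise, this cannot tell whether a number pairs libraries.

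The median folds of 2.16 (DPF2) and 2.93 (H3K14cr) became 2.69 and 3.97 without the central 4 kb in the background, 7.24 and 10.0 against the chromosome mean, 2.85 and 4.07 against 50 kb, 1.90 and 2.16 in the 1 kb upstream, and 2.53 and 3.37 in the 1 kb downstream. In 1 kb centred on the start the DPF2 median was 2.38. With a single library the DPF2 median lay between 2.16 and 2.21, that of H3K14cr between 2.67 and 3.05. The median widths of 1220 and 1440 bp became 480 and 990 bp with a 300 bp running mean, 1740 and 2200 bp at 25% of the height, and 530 and 540 bp at 75% of it. Single libraries gave 790 to 1190 bp for DPF2 and 990 to 1290 bp for H3K14cr.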
